A study of Mus musculus with 6 samples.

Results

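The unfolded protein and ATF4 response genes were followed here as 10 human genes chosen by Ensembl identifier: HSPA5, HSP90B1, DDIT3, ATF4, XBP1, HERPUD1, TRIB3, ASNS, PHGDH and PSAT1. Of these, 9 had a locus in the data, out of 15234 loci in all, and no event carried the identifier of DDIT3. The 9 loci held 87 of the 175743 transcript events. The samples were subcutaneous tumours of A375, an established human melanoma cell line (genotype WT in the labels), grown in BALB/c nude mice. The mice were dosed orally every day with ZLD1039, an inhibitor of the histone methyltransferase EZH2, at 100 mg/kg, or with its vehicle, and tumours were taken on day 27. RNA of 3 ZLD1039 tumours and 3 vehicle tumours was sequenced. The labels put 5 mice in each group and do not say outright that each tumour came from its own mouse. The tests rest on the variation among tumours, part of which may be technical. If tumours shared a mouse, this variation could understate that among mice, and p-values and intervals could be too small. All tumours came from 1 cell line in hosts that lack T cells, as nude mice do.

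Cells answer unfolded protein in the endoplasmic reticulum through the sensors IRE1, PERK and ATF6. IRE1 cuts a short intron out of the XBP1 messenger in the cytoplasm, and only the cut form encodes the active transcription factor, which with ATF6 raises chaperones and degradation factors. PERK, and the kinase GCN2 when amino acids are short, slow translation in general but favour that of ATF4, a transcription factor that raises amino acid synthesis genes, DDIT3 and TRIB3. ATF4 activity is therefore set largely at translation, and its messenger level is not a measure of that activity. Melanoma cells are known to use both arms when nutrients or oxygen run low.

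Each tumour's data list transcript events (start sites, end sites, skipped exons, retained introns, alternative exon ends) with an abundance in FPKM, fragments per length of transcript and per mapped fragments of the library. A locus was given the largest of its summed starts, its summed ends and its largest event. The tumours listed 12114 to 12758 loci and 117347 to 126622 events each, while their depth is unknown, which leaves no counting error to report. Positions lie on human chromosomes, although the labels name the mouse as organism and mm10 as build. Chromosome names run to 22 and chromosome 1 reaches position 249214145, which from background knowledge fits GRCh37, and reads of the mouse host placed on human genes could not be separated. The melanoma identity of the tumours and other genes of the pathway were not analysed here, because the files carry identifiers without gene names. ZLD1039 tumour 2 stood apart, with a mean correlation of 0.919 with the other tumours over 10834 tested loci, against 0.934 to 0.943 for the other tumours. Fewer cells of a type and less RNA per cell cannot be told apart in such bulk samples.

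The chaperones and ATF4 formed the upper tier of abundance and the other genes a lower one. HSP90B1 averaged 201 ± 37.6 FPKM, ATF4 156 ± 37.9 and HSPA5 128 ± 9.98 FPKM over the 6 tumours (SD, n = 6), above 98.7, 98.1 and 97.8% of tested loci. HERPUD1 followed at 25.3 ± 7.80 FPKM, a level 5.05 times lower than that of HSPA5. PSAT1, PHGDH, TRIB3 and XBP1 averaged 23.1, 19.8, 18.0 and 17.9 FPKM. ASNS was the least abundant, at 7.44 ± 2.62 FPKM, just below the median of 8.01 FPKM of tested loci. Only 2 steps in this order held in every tumour: HSPA5 lay above HERPUD1 and XBP1 above ASNS in 6 of 6, while each other gene exceeded its next lower neighbour in 4 of 6 tumours.

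None of the 9 genes rose or fell under ZLD1039 by the test over all loci. Limma, a linear model with a shared variance estimate, on log2(FPKM + 1) with Benjamini-Hochberg adjustment over 10834 loci called 0 of the 9, and the smallest adjusted p among them was 0.881. Across all loci 0.0185% were called. An unadjusted p under 0.05 was found for 1 of the 9, ASNS, where 4.94% of all loci had one. The log2 differences, ZLD1039 minus vehicle, were above 0 for 6 genes and below 0 for 3, with a median of 0.08 beside 0.02 over all loci tested. The 95% intervals, before any adjustment, reached 0.36 to 0.64 on either side of the estimates, so differences smaller than this could not be resolved. A call after adjustment takes a larger difference. ASNS, with an interval of 0.07 to 1.15 that excludes 0, was not called.

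**Figure D1:**
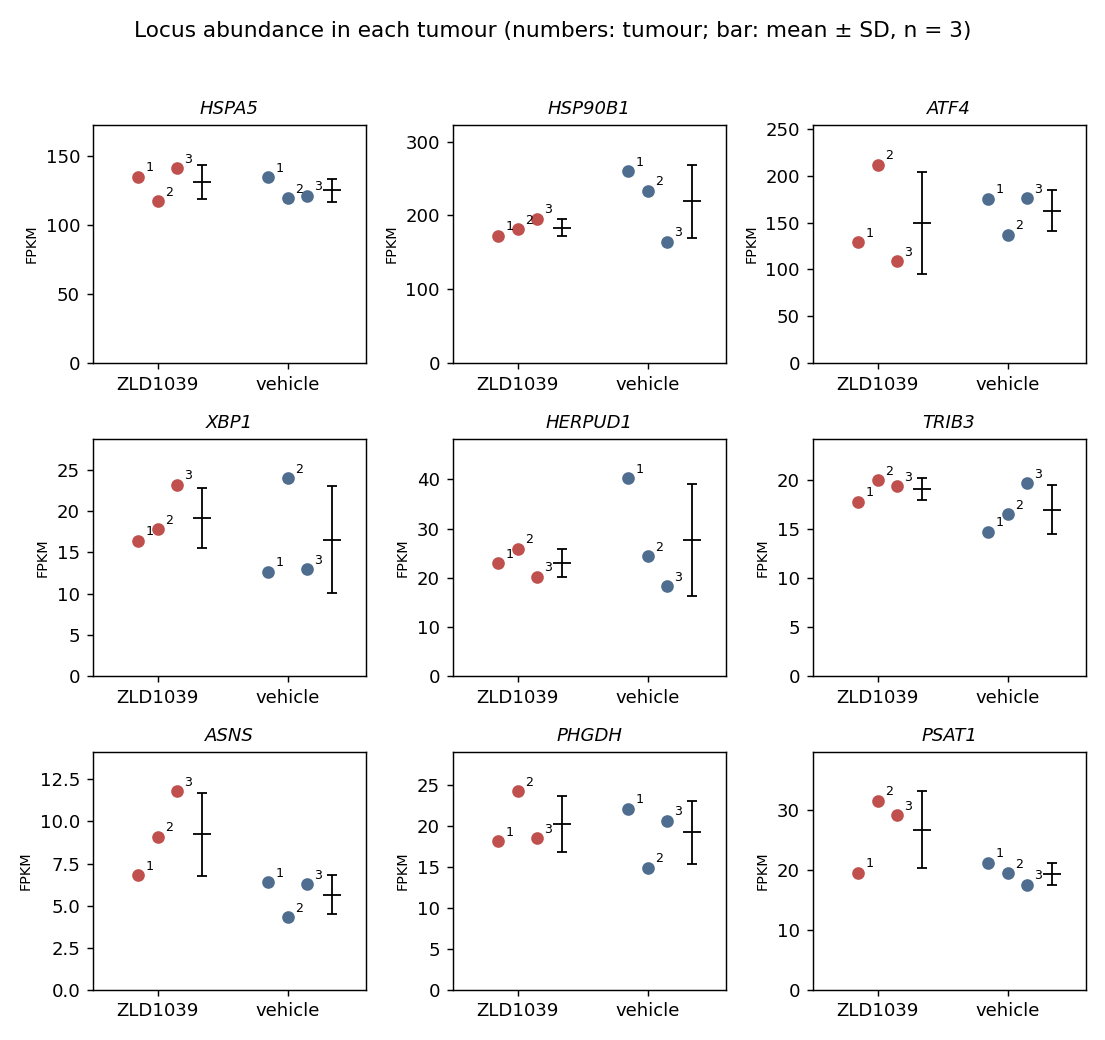
Locus abundance in FPKM (vertical axes, from 0) of the 9 listed genes in each tumour, with ZLD1039 tumours in red on the left and vehicle tumours in blue on the right of each panel. Points carry the tumour number and black bars give the mean ± SD (n = 3); ASNS is the gene whose groups do not overlap.

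The ER chaperones come first. HSPA5 (ENSG00000044574, BiP, the main ER member of the HSP70 family, which also holds the stress sensors inactive) lies on the minus strand of chromosome 9, 127997132 to 128003609. It measured 135, 117 and 141 FPKM in ZLD1039 tumours 1, 2 and 3, against 134, 119 and 121 FPKM in vehicle tumours 1, 2 and 3. The groups overlapped almost fully, and the log2 difference was 0.07 (standard error 0.16, limma, 95% interval -0.30 to 0.43, adjusted p = 0.948). HSPA5 was also the steadiest of the 9, with an SD of 0.11 on the log2 scale over the 6 tumours, and only 4.25% of tested loci had a lower one.

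HSP90B1 (ENSG00000166598, GRP94, the ER member of the HSP90 family, on the plus strand of chromosome 12, 104323885 to 104347423) measured 173, 181 and 196 FPKM in ZLD1039 tumours, against 259.7, 233 and 164 FPKM in vehicle tumours. Vehicle tumour 3 lay below every ZLD1039 tumour, and vehicle tumours 1 and 2 above every one. The group means were 183 ± 11.7 FPKM under ZLD1039 and 219 ± 49.2 FPKM under vehicle (SD, n = 3), a log2 difference of -0.23 (standard error 0.21, limma, adjusted p = 0.884). The larger spread lay in the vehicle group.

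HSP90B1 carried a second start site inside the gene, at 104337397 to 104337652, beside the main one at 104323885 to 104324342. The inner start held 12.7, 19.8 and 10.8% of the summed starts in ZLD1039 tumours, against 4.54, 5.64 and 15.2% in vehicle tumours. Vehicle tumour 3 lay among the ZLD1039 tumours for this share, so the groups overlapped. The mean difference was 5.99 points (standard error 5.44, limma over 21321 start sites, adjusted p = 0.764), and none of all start sites was called (0%; 2.49% had an unadjusted p under 0.05). Its listed end sites summed to only 4.88 FPKM on average, and of these the end at 104336852 to 104337245 held 100, 100 and 100% in ZLD1039 tumours, against 44.9, 98.5 and 100% in vehicle tumours (limma, adjusted p = 0.774). The 44.9% of vehicle tumour 1 rests on values near 0, 0.155 FPKM at this end and 0.190 FPKM at the end at 104347164 to 104347423. In ZLD1039 tumour 1 and vehicle tumour 3 this end also stood at only 0.141 and 0.129 FPKM.

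Of the transcription factors, XBP1 is the one whose messenger IRE1 cuts. The values below are FPKM of listed transcripts, and whether they follow IRE1 activity was not tested. XBP1 (ENSG00000100219) lies on the minus strand of chromosome 22, 29190543 to 29196585, and the data list transcripts that keep and transcripts that lack a stretch of 26 bases between exon ends 29192109 and 29192136. A length of 26 leaves a remainder of 2 when divided by 3, so its removal shifts the reading frame, and from background knowledge it is the intron that IRE1 cuts out. Transcripts without it were listed in all 6 tumours, at 4.75, 6.33 and 2.13 FPKM in ZLD1039 tumours, against 3.83, 3.19 and 4.98 FPKM in vehicle tumours. The groups overlapped, with the highest and the lowest value both in ZLD1039 tumours.

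As a share of XBP1, the form without the 26 bases made up 28.9, 35.6 and 9.16% in ZLD1039 tumours, against 30.3, 13.3 and 38.3% in vehicle tumours. One tumour of each group was low (ZLD1039 tumour 3 and vehicle tumour 2) and the other 4 lay near each other. The means were 24.6 ± 13.7% under ZLD1039 and 27.3 ± 12.8% under vehicle (SD, n = 3), a difference of -2.74 points (standard error 13.3, limma over 13274 exons and introns, 95% interval -34.9 to 29.4, adjusted p = 0.970). Of those 13274 items 0% were called and 2.09% had an unadjusted p under 0.05. The interval reaches further than the mean share itself in both directions.

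**Figure D2:**
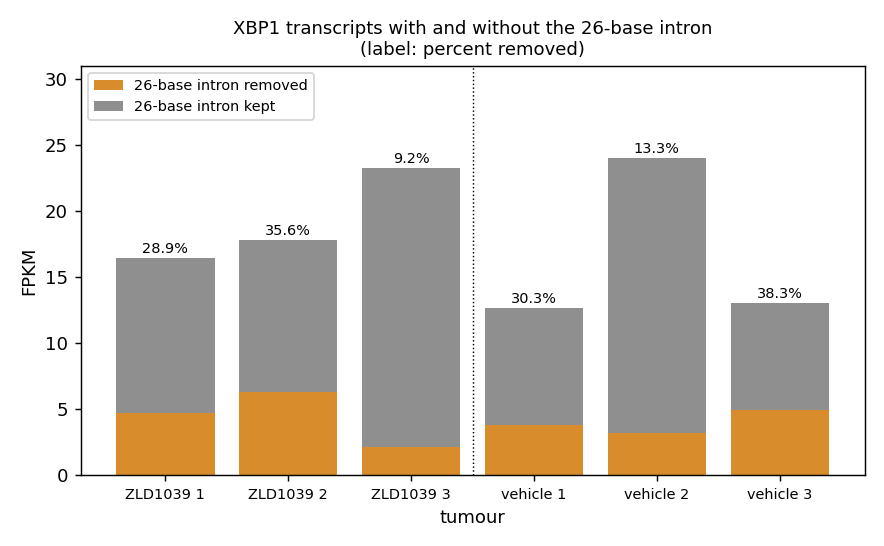
XBP1 abundance in FPKM (vertical axis) in each tumour, ZLD1039 tumours left and vehicle tumours right of the dotted line, split into transcripts that lack (orange) and keep (grey) the 26-base intron. The percentage above each bar is the share that lacks it, which runs between 9.16 and 38.3% and is lowest in ZLD1039 tumour 3 and vehicle tumour 2.

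The same tumours, ZLD1039 tumour 3 and vehicle tumour 2, had the highest XBP1 abundance and were the ones that listed a second start site. XBP1 as a whole measured 16.4, 17.8 and 23.2 FPKM in ZLD1039 tumours, against 12.6, 24.0 and 13.0 FPKM in vehicle tumours. Its log2 difference was 0.24 (standard error 0.27, limma, adjusted p = 0.895). The second start, at 29195948 to 29196121, held 33.9% of the starts in ZLD1039 tumour 3 and 33.0% in vehicle tumour 2, and was not listed in the other 4 tumours. The part of this start in the shares of the intron was not tested.

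ATF4 (ENSG00000128272, plus strand of chromosome 22, 39915700 to 39918688) measured 129, 212 and 109 FPKM in ZLD1039 tumours, against 175, 137 and 176 FPKM in vehicle tumours. ZLD1039 tumours gave both the highest and the lowest value. The log2 difference was -0.17 (standard error 0.26, limma, 95% interval -0.78 to 0.44, adjusted p = 0.916).

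Most of its abundance lay at different start sites in different tumours. The upstream first exon, 39915700 to 39915806, held 79.98, 0 and 84.1% of the starts in ZLD1039 tumours 1, 2 and 3, against 0, 79.99 and 0.09% in vehicle tumours 1, 2 and 3. The short downstream first exon, 39916569 to 39916756, held 1.49, 94.4 and 0.26% in ZLD1039 tumours, against 93.4, 1.43 and 92.4% in vehicle tumours. A longer downstream first exon, 39916569 to 39917676, held the rest, with 18.5, 5.64 and 15.6% in ZLD1039 tumours and 6.58, 18.6 and 7.47% in vehicle tumours. Either the upstream or the short downstream exon thus held most of the starts in each tumour, and both patterns occurred in both groups.

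Over the 6 tumours the share of the short downstream exon had an SD of 50.6 points, larger than at 99.8% of tested start sites. The group difference was -30.4 points (standard error 36.9, limma, adjusted p = 0.817), and that of the upstream exon 28.0 points (standard error 32.9, limma, adjusted p = 0.810). The tumours assigned to the upstream exon, ZLD1039 tumours 1 and 3 and vehicle tumour 2, were also those with the lowest ATF4 abundance. FPKM divides by transcript length, so the abundance depends on the transcript assigned, and the part of the assignment in these levels was not tested.

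**Figure D3:**
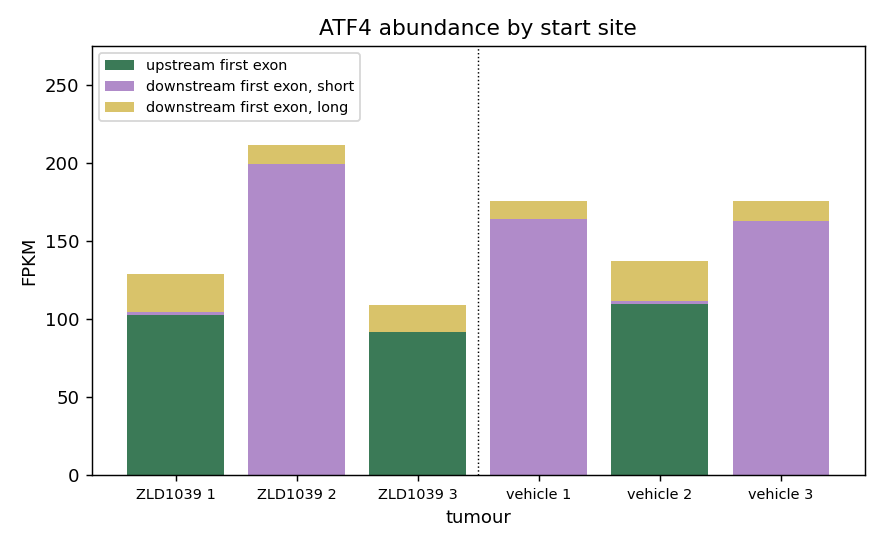
ATF4 abundance in FPKM (vertical axis) in each tumour, ZLD1039 tumours left and vehicle tumours right of the dotted line, stacked by start site. The upstream first exon (green) leads in ZLD1039 tumours 1 and 3 and vehicle tumour 2, and the short downstream first exon (purple) in ZLD1039 tumour 2 and vehicle tumours 1 and 3.

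DDIT3 (ENSG00000175197, CHOP, the ATF4-induced factor tied to cell death under lasting stress) was listed in no tumour under its own identifier. From background knowledge of GRCh37 the gene lies on the minus strand of chromosome 12, in the interval that the files give to the locus XLOC_017869, 57910371 to 57917568, under another Ensembl identifier. That locus measured 2.58, 3.32 and 1.75 FPKM in ZLD1039 tumours, against 1.50, 5.25 and 2.53 FPKM in vehicle tumours. The groups overlapped, and how much of this abundance belongs to DDIT3 was not tested, so no value is given for DDIT3.

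HERPUD1 (ENSG00000051108, plus strand of chromosome 16, 56965960 to 56976149), an ER membrane protein of the machinery that hands misfolded proteins to the proteasome, measured 23.0, 25.9 and 20.2 FPKM in ZLD1039 tumours. In vehicle tumours it measured 40.2, 24.4 and 18.3 FPKM, so that vehicle tumours held both the highest and the lowest value. The log2 difference was -0.19 (standard error 0.28, limma, adjusted p = 0.914).

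The high value of vehicle tumour 1 came from the leading start, 56965960 to 56966303, which stood at 17.0, 16.1 and 8.64 FPKM in ZLD1039 tumours and at 33.0, 17.9 and 8.29 FPKM in vehicle tumours. A further start at 56969863 to 56970729 took 43.1% of the starts in ZLD1039 tumour 3 and 46.8% in vehicle tumour 3, against 9.06 to 24.5% in the other 4. The exon at 56973807 to 56974157 stood at 21.1, 22.6 and 16.5 FPKM in ZLD1039 tumours and at 13.0, 21.3 and 17.0 FPKM in vehicle tumours. Vehicle tumour 1, highest for the gene as a whole, was therefore lowest for this exon.

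TRIB3 (ENSG00000101255, plus strand of chromosome 20, 360441 to 378203), a pseudokinase that is induced by ATF4 and DDIT3 and restrains them in turn, measured 17.8, 20.0 and 19.4 FPKM in ZLD1039 tumours, against 14.8, 16.5 and 19.7 FPKM in vehicle tumours. Only vehicle tumour 3 reached into the range of the ZLD1039 tumours. The log2 difference was 0.16 (standard error 0.16, limma, adjusted p = 0.887). The start at 361261 to 361813 led in every tumour, with 81.5, 89.5 and 83.7% of the starts in ZLD1039 tumours and 89.2, 87.5 and 84.3% in vehicle tumours.

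Of the amino acid synthesis genes, ASNS was the gene of the 9 with the largest difference. ASNS (ENSG00000070669), asparagine synthetase, which makes asparagine from aspartate and glutamine and is a classical ATF4 target, lies on the minus strand of chromosome 7, 97483892 to 97501854. It measured 6.81, 9.09 and 11.8 FPKM in ZLD1039 tumours, against 6.39, 4.32 and 6.26 FPKM in vehicle tumours. All 3 ZLD1039 tumours lay above all 3 vehicle tumours, as they did at 5.75% of all tested loci, but ZLD1039 tumour 1 exceeded vehicle tumour 1 only narrowly.

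The ASNS means were 9.23 ± 2.49 FPKM under ZLD1039 and 5.66 ± 1.16 FPKM under vehicle (SD, n = 3). The log2 difference was 0.61 (standard error 0.23, limma, 95% interval 0.07 to 1.15, unadjusted p = 0.0325, adjusted p = 0.881), which did not pass. No other gene of the 9 separated the groups, in either direction; 5.2% of tested loci lay lower in all ZLD1039 tumours.

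ASNS transcripts varied near the 5′ end. The start at 97501663 to 97501854 led, with 4.59, 8.10 and 10.2 FPKM in ZLD1039 tumours and 4.93, 4.15 and 6.12 FPKM in vehicle tumours, so that at this site alone the groups overlapped. The exon at 97501031 to 97501308 was included at 53.5, 7.50 and 4.61% in ZLD1039 tumours, against 60.6, 0 and 0% in vehicle tumours. ZLD1039 tumour 1 and vehicle tumour 1 were high for this exon, and the group difference was 1.66 points (standard error 21.8, limma, adjusted p = 0.996). A longer run that joins this exon to others, 97498220 to 97501308, had a mean total of only 1.27 FPKM and was included at 100, 36.3 and 100% in ZLD1039 tumours and at 100, 0 and 0% in vehicle tumours (limma, adjusted p = 0.719). Part of these shares rests on values near 0. ZLD1039 tumour 3 had 0.398 FPKM with the run, and vehicle tumours 2 and 3 had 0.097 and 0.307 FPKM without it. The 9.69 FPKM listed without the single exon in ZLD1039 tumour 3 did not enter the share of the run.

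The serine pathway enzymes were PHGDH and PSAT1, and neither was called. PHGDH, which opens serine synthesis by oxidising 3-phosphoglycerate (ENSG00000092621, plus strand of chromosome 1, 120254507 to 120286838), measured 18.1, 24.2 and 18.5 FPKM in ZLD1039 tumours, against 22.1, 14.9 and 20.7 FPKM in vehicle tumours. The groups overlapped, with a log2 difference of 0.08 (standard error 0.20, limma, adjusted p = 0.954). PSAT1, the aminotransferase of the next step (ENSG00000135069, plus strand of chromosome 9, 80912059 to 80944370), measured 19.5, 31.6 and 29.2 FPKM in ZLD1039 tumours, against 21.3, 19.4 and 17.6 FPKM in vehicle tumours.

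For PSAT1, ZLD1039 tumours 2 and 3 lay above every vehicle tumour and ZLD1039 tumour 1 lay among them. The means were 26.8 ± 6.39 FPKM under ZLD1039 and 19.4 ± 1.84 FPKM under vehicle (SD, n = 3), a log2 difference of 0.42 (standard error 0.21, limma, 95% interval -0.07 to 0.90, adjusted p = 0.881). PSAT1 used 1 start and 1 end throughout. Its exon at 80942967 to 80943104 was included at 93.6, 99.6 and 89.9% in ZLD1039 tumours, against 89.0, 90.1 and 99.4% in vehicle tumours (difference 1.51 points, standard error 4.36, limma adjusted p = 0.929).

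PHGDH had a pair of starts, of broadly like size except in vehicle tumour 1. The upstream start, 120254507 to 120254783, held 54.2, 51.9 and 48.2% in ZLD1039 tumours, against 93.0, 40.9 and 56.4% in vehicle tumours, and most of the rest came from the start at 120262250 to 120263944. Vehicle tumour 1, with 93.0%, stood apart from the other 5 tumours. The group difference was -12.0 points (standard error 14.9, limma, adjusted p = 0.821).

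**Figure D4:**
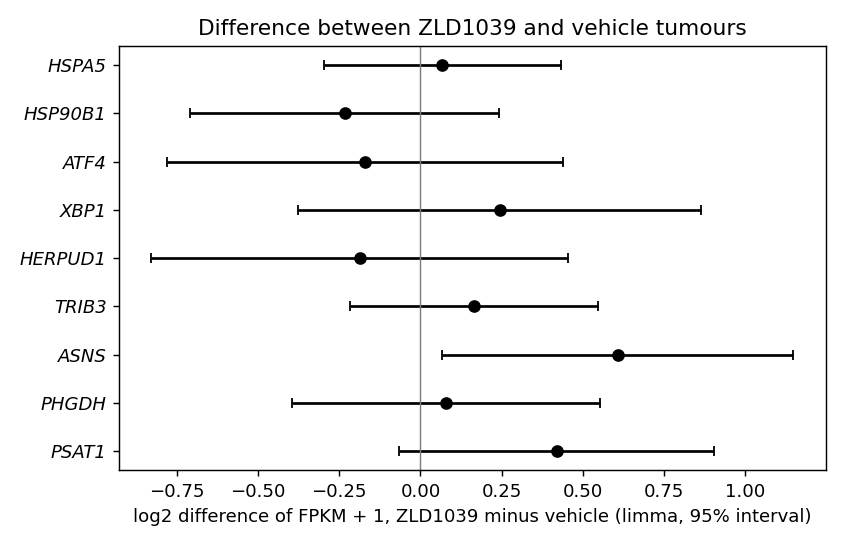
Log2 difference of FPKM + 1 (horizontal axis), ZLD1039 minus vehicle, for the 9 listed genes (rows), as limma estimate with its 95% interval over 3 tumours in each group. The interval lies wholly above 0 for ASNS, from 0.07 to 1.15 and before any adjustment, and crosses 0 for the other 8.

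Events of these genes gave no call either. Of the 87 events, 56 had a mean of 1 FPKM or more in one group or both, and limma over 82894 events called 0 of them (smallest adjusted p = 0.855). None of the 56 had an unadjusted p under 0.05, against 4.7% of all events, and 0.0362% of all events were called. Of the 87, 56 were listed in all 6 tumours. Tested as shares were 20 start sites, 2 end sites and 5 exons, introns or exon runs of these genes. Limma called 0 of them, 0 had an unadjusted p under 0.05, and among all 4610 end sites 0% were called and 2.86% had an unadjusted p under 0.05.

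Which tumour was highest or lowest varied from gene to gene. ZLD1039 tumour 2 was the highest tumour for 4 of the 9 genes, ATF4, TRIB3, PHGDH and PSAT1, and the lowest for HSPA5. Vehicle tumour 1 was the highest for HSP90B1 and HERPUD1, and the lowest for XBP1 and TRIB3. ZLD1039 tumour 1 was neither highest nor lowest for any gene. The SD of log2(FPKM + 1) over the 6 tumours had a median of 0.33 for the 9 genes, beside 0.29 for all tested loci.

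**Figure D5:**
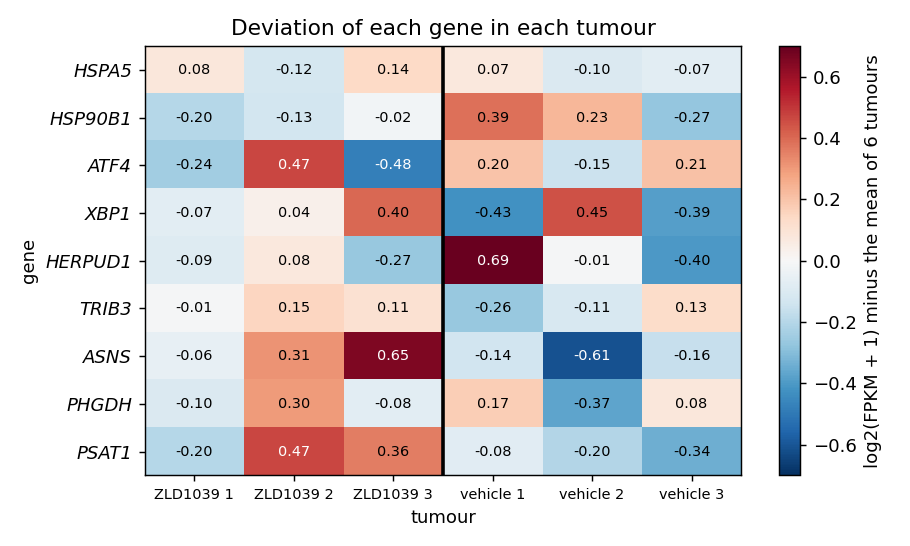
Deviation of each gene (rows) in each tumour (columns, ZLD1039 left of the black line, vehicle right) from its mean over the 6 tumours, on the scale of log2(FPKM + 1), with red above and blue below the mean. The furthest cells are HERPUD1 in vehicle tumour 1 at 0.69 and ASNS in ZLD1039 tumour 3 at 0.65.

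HSPA5 and PSAT1 lie on chromosome 9, whose 463 tested loci had a median deviation of -0.27 in ZLD1039 tumour 2. HSPA5 deviated by -0.12 and PSAT1 by 0.47 in that tumour. Centred on the other loci of their chromosome, the log2 differences were 0.17 for HSPA5 and 0.52 for PSAT1 (limma, adjusted p = 0.876 for both). TRIB3 lies on chromosome 20, whose 298 loci had a median deviation of -0.19 in the same tumour, and its centred difference was 0.21 (limma, adjusted p = 0.876). Without ZLD1039 tumour 2 the log2 differences were 0.60 for ASNS, 0.29 for PSAT1, 0.29 for XBP1, 0.14 for HSPA5 and 0.13 for TRIB3, and -0.05 for PHGDH, -0.23 for HSP90B1, -0.27 for HERPUD1 and -0.45 for ATF4, with none called.

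Relations between the messenger levels of genes that the pathway links were not resolved with 6 tumours. The ATF4 level is not a measure of ATF4 activity, and it depends on the transcript assigned. ATF4 was set against TRIB3, ASNS, PHGDH and PSAT1, and XBP1 without the 26 bases against HSPA5, HSP90B1 and HERPUD1, 7 pairs in all. Over all 6 tumours the largest r was that of ATF4 with PHGDH, with Pearson's r = 0.745 (exact permutation p = 0.0917, adjusted 0.642) and Spearman's rho = 0.714 (exact permutation p = 0.136, adjusted 0.564) over 6 tumours of both groups, and r = 0.790 without the pair of tumours farthest from the ATF4 median. ATF4 with ASNS gave r = -0.16 and rho = -0.26 (exact permutation p = 0.769 and 0.658), and r = 0.276 without the 2 farthest tumours. The cut XBP1 form with HSPA5 gave r = -0.60 and rho = -0.60 (exact permutation p = 0.217 and 0.242), and r = 0.291 without the 2 farthest tumours. With HSP90B1 it gave r = -0.44 and rho = -0.60 (exact permutation p = 0.375 and 0.242), and r = -0.85 without the 2 farthest tumours. ATF4 gave r = 0.04 with TRIB3 and 0.07 with PSAT1, and the cut XBP1 form gave r = 0.08 with HERPUD1. Values of r without 2 tumours rest on the few tumours that remain and were not tested. Adjusted p-values of the 7 pairs were all 0.564 or more, and groups of 3 are too small for values within a group.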

How the data were processed

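Values are FPKM per transcript event, as the authors deposited them, 1 list per tumour; the unit is named per the file headers. Tools named in the submitters' processing notes are HTSeq 0.6.1 and bcl2fastq 2.17.1.14, with the build mm10, against which the human positions stand; aligner, assembler and event caller: not given in the sources used here. Unlisted events were set to 0. Loci, events, exon and intron shares (FPKM with over FPKM with and without) and start or end shares of the summed sites were each fitted over the whole table with limma 3.58.1 in R 4.3.3, with a mean-variance trend and no replicate block. The pseudocount was 1, the filter a mean of 1 FPKM or more in one group or both, and for shares also a total above 0 in all 6 tumours and a mean share between 1 and 99%. The log2(FPKM + 1) scale understates changes of low values. The fits were run on simulated data with independent noise, where the sign of added differences had to be mostly right. The locus differences added were larger than any of the 9 genes showed, so the run says nothing about differences of their size. Depth is unknown, so FPKM was never treated as counts. The members, lists, the form of the locus value and the tests were chosen with earlier results of these data known. All 9 listed members are named. The leading start is given by position for each member except HSPA5, PSAT1 and XBP1. Also named are exons and introns with a mean share between 5 and 95%, and any event past 0.05. Single HERPUD1 exons, HSP90B1 ends and second starts were chosen after their values were seen. Pathway and cell type lists by symbol were not used, and no human sequence is printed. Correlations over tumours used exact permutation of pairings in scipy 1.17.1.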

Additional observations from a re-analysis of the deposited data

How the results depend on the processing

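No member locus, event, exon, intron, start or end was called in any of the alternatives (0 throughout). The smallest adjusted p (limma) was 0.463 over 17 alternatives for loci and 0.739 over 10 for the shares given below. It was not collected for events and for the other shares. ASNS, PSAT1, TRIB3 and XBP1 kept the sign of their log2 difference in all 17, with 0.43 to 0.79, 0.29 to 0.62, 0.07 to 0.27 and 0.09 to 0.53 when 1 tumour was left out. The same left-out ranges were -0.45 to 0.0287 for ATF4, -0.44 to 0.11 for HERPUD1, -0.43 to -0.10 for HSP90B1, 0.01 to 0.14 for HSPA5 and -0.0849 to 0.19 for PHGDH. With summed ends HSP90B1 stood at 1.02, where its listed ends averaged 4.88 FPKM in sum, and HERPUD1 had no value; with quantile normalization HSPA5 stood at -0.0078. For shares in points the left-out ranges were -4.96 to 9.74 for the kept XBP1 intron, -1.10 to 4.80 for the PSAT1 exon, -14.2 to 21.9 for the ASNS exon, and for the leading start -17.9 to 1.25 in HERPUD1, -23.3 to 2.77 in PHGDH and -11.3 to 11.0 in XBP1, each of which changed sign. Ranges without a change of sign were -61.6 to -14.5 for the leading ATF4 start, 13.3 to 55.4 for its upstream start, 28.8 to 78.8 for the ASNS run of exons, and for the leading start -9.44 to -3.35 in HSP90B1, -16.1 to -2.69 in ASNS and -4.41 to -0.38 in TRIB3. The shares of the ASNS run rest on values near 0 in some tumours, so its unchanged sign carries little weight. On the log2 ratio scale the ASNS exon stood at -0.12 and the leading XBP1 start at 0.24. The causes were not tested.

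The groups share replicate numbers 1 to 3. Same-numbered tumours did not deviate together in locus abundance (correlations of -0.03, 0.02 and -0.06 over tested loci). That check did not cover shares, so whether the numbers pair the tumours was not settled. Some shares, picked after their values were seen, followed the number, and how many did so was not counted. The HERPUD1 start at 56975923 to 56976149 held 7.38, 11.84 and 0.24% in ZLD1039 tumours, against 7.40, 11.96 and 0.27% in vehicle tumours. This start stood at 3.07 FPKM or less in every tumour. Other shares did not follow the number, among them the start shares of ATF4 and XBP1. With a replicate block 0 member loci, events and shares were called, as without it. Leaving out vehicle tumour 2 took the XBP1 difference to 0.53, and leaving out vehicle tumour 1 turned HERPUD1 to 0.11. Depth is unknown.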
